A study of Mus musculus with 38 samples.

Results

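The imprinted genes described here are those outside the Dlk1-Dio3 and Igf2-Cdkn1c clusters. They were taken from a list of 36 gene symbols, and 35 of these were found among the 25965 genes of the deposited RNA table. Peg13 was not analysed here. The 35 genes lie on 10 chromosomes, and 28 of them were high enough to be tested, which required at least 0.5 RPM (reads per 1e6 reads of the library) in at least 3 libraries. The study grew E14 cells, a male mouse embryonic stem cell (ESC) line of 129/Ola origin, without feeder cells on gelatin and with the cytokine LIF in every medium. The media were serum medium (S/L) and 3 media that share the serum-free base N2B27 and hold a MEK inhibitor at 1 µM (spelled PD03259010 in the labels; MEKi/L), the GSK3 inhibitor CHIR99021 at 3 µM (GSK3i/L), or both at these doses (2i/L). Each medium had 3 RNA libraries after 8 days, and GSK3i/L had 2 more after 24 days, which makes 14 RNA libraries. None of these groups is N2B27 without an inhibitor, so in every comparison with S/L the loss of serum and the inhibitor cannot be told apart. All libraries come from 1 inbred line and reads were not split by parental allele, so a change in level cannot be told apart from a gain or loss of imprinting. In bulk RNA, fewer cells expressing a gene and less RNA per cell cannot be told apart either.

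Imprinted genes are expressed mainly from the copy inherited from one parent. The choice is carried by DNA methylation laid down in the egg or the sperm at an imprinting control region, and in ESCs this mark is kept by DNMT1 with its partner UHRF1 and by zinc finger proteins such as ZFP57, which binds the methylated hexamer TGCCGC and recruits TRIM28. ESCs in serum-free medium with inhibitors are known for low genome-wide DNA methylation, and long culture in 2i/L is known to erode imprints. Many imprinted genes act in fetal growth, placenta and brain.

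Promoter sequences are shown for 4 sites whose genes carry the results below. Plagl1 had the largest rise, Mest fell in both media with the MEK inhibitor, Snrpn and Snurf share 1 start and fell together, and Mcts2 is a retrogene with a start of its own inside another imprinted gene. Each line gives the 250 bases before the RefSeq start (GRCm38.p6), 5′ to 3′ on the strand of the gene. Where a gene had several starts, the window with the most matches to the hexamer below was chosen. Mest has another window, from 30733256, without a match. Capitals mark the hexamer TGCCGC or its reverse complement GCGGCA, and everything else is in lower case.
Plagl1, chr10:13090582-13090831, plus strand: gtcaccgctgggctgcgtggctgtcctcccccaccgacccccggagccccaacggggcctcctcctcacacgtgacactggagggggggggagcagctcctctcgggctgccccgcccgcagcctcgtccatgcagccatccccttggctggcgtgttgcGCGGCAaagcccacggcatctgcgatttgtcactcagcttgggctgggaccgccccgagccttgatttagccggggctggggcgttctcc
Mest, chr6:30737800-30738049, plus strand: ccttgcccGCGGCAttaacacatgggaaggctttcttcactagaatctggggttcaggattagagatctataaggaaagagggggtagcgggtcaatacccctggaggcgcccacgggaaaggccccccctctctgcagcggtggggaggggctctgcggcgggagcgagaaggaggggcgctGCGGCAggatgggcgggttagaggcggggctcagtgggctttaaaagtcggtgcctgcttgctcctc
Snrpn and Snurf, chr7:60005200-60005449, minus strand: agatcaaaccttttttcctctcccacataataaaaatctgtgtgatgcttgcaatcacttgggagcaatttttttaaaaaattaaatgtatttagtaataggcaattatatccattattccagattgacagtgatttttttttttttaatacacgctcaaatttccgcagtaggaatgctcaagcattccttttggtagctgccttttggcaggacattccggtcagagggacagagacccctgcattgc
Mcts2, chr2:152686898-152687147, plus strand: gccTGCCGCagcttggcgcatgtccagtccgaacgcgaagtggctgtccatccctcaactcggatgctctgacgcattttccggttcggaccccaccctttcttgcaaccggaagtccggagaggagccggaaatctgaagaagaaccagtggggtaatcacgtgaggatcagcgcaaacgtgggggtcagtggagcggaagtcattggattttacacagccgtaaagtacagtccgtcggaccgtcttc
The Plagl1 stretch holds 1 match and 19 CpG dinucleotides, the Mest stretch 2 matches and 14 CpGs, the Mcts2 stretch 1 match and 20 CpGs, and the Snrpn and Snurf stretch no match and 3 CpGs. Over windows of the same 250 bases, 8 of 42 windows at distinct positions, of the 30 members with a RefSeq entry, held the hexamer on either strand (19%), beside 2847 of 32817 windows of all genes (8.68%). Overlapping Mest windows from 30737800 and 30737803 hold the same matches and both count among the 8. The median window held 12.5 CpGs for the members and 6.0 for all genes. A match is a description of the letters and not a measured binding site.

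The values of the 6 S/L and 8-day GSK3i/L libraries had been matched to 1 common distribution, and the other 8 columns were plain log2 RPM. The 8 plain columns put the total reads per library between about 10550000 and 15760000. Matched values do not give the depth of a library, so none is given for the other 6. GSK3i/L against S/L is therefore a comparison within matched columns and 2i/L against MEKi/L one within plain columns, and the other 5 comparisons cross these kinds. All 12 ESC markers had a mean of at least 1 RPM in every group. The 11 trophoblast markers, led by Gata2, Krt7 and Eomes, summed to 5.4 to 9.01 RPM in S/L and 9.86 to 12.3 in MEKi/L. They summed to 7.28 to 30.3 RPM in 8-day GSK3i/L, 14.4 to 30.5 at 24 days and 17.15 to 33.4 in 2i/L. Of these, Prl3d1 and Tpbpa were at 0 throughout. The 9 primitive endoderm markers summed to 4.34 to 27.05 RPM in 8-day libraries and 13.4 to 50.1 at 24 days. Fibroblast markers summed to 107 to 251 RPM in the 8-day GSK3i/L libraries and to 6.44 to 17.2 RPM elsewhere. A score of 38 long against 48 short transcripts (mean log2 level of the long minus that of the short) ran from -3.53 to -3.11 in S/L, from -4.15 to -3.53 in GSK3i/L at 24 days and from -0.24 to 0.03 in 2i/L. Replicate 1 of MEKi/L (0.10, the others -2.39 and -2.04) and replicate 1 of 8-day GSK3i/L (-0.28, the others -2.18 and -3.23) stood apart from their groups. Most of the short transcripts are respiratory chain or ATP synthase genes, so the score need not measure length alone. Every MEKi/L and 2i/L score lay above every S/L score. In these comparisons a change with the score and a change with the medium cannot be told apart, also where the score is a covariate.

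Against S/L, more imprinted genes were lower than higher in each serum-free medium. A gene is called here when limma's moderated test over all 14 libraries gives a Benjamini-Hochberg adjusted p under 0.05 across the 14980 tested genes. In MEKi/L 16 of the 28 tested members were called, 4 higher and 12 lower, where 40.8% of all tested genes were called (26.1% higher and 14.7% lower). In GSK3i/L 13 were called, 4 higher and 9 lower, against 31.1% of all genes (16.8% higher and 14.4% lower). In 2i/L 16 were called, 5 higher and 11 lower, against 63.6% of all genes (39.1% higher and 24.4% lower). The median difference of the members was -0.27, -0.13 and -0.18 on the log2 scale in the 3 media, and that of all genes 0.17, 0.06 and 0.28. Centring each library on its median removes that shift of all genes, and the 2i/L split then became 4 higher and 15 lower. With the length score as a covariate it was 2 higher and 10 lower in 2i/L. In GSK3i/L it was then 2 higher and 9 lower, and in MEKi/L 3 higher and 12 lower. The shares of all genes belong to the fit without these changes. Counts from alternative fits, here and below, have no such share beside them unless a count over all genes is given.

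Those 3 comparisons share the S/L libraries, so their lists are not independent. Peg10, Ppp1r9a, Snrpn, Snurf, Ndn, Magel2 and Mkrn3 were lower in all 3 media, and Plagl1 and Trappc9 were higher in all 3. Snurf lies inside Snrpn on the same strand, so these 2 are not independent members of the counts. Magel2 passed the filter through its S/L libraries alone and could only be lower. Without it the lower members number 11 in MEKi/L, 8 in GSK3i/L and 10 in 2i/L. Those 8 still hold Usp29, which passed the filter without any GSK3i/L library. Plagl1 passed it without any S/L library and is among the higher members in each medium. Blcap, Commd1, Gnas, Impact, Inpp5f, Peg3, Ube3a and Zdbf2, 8 members, were called in none of the 3. The share of all tested genes with each of these patterns was not counted. The patterns are therefore a list of genes and not a result about the members. Of the 18 tested members known to be paternally expressed, 9 were lower and 3 higher in MEKi/L. In GSK3i/L 8 were lower and 1 higher, and in 2i/L 9 were lower and 2 higher. Magel2 is among the lower and Plagl1 among the higher in each, and Usp29 is among the lower in GSK3i/L. Of the 9 tested members known to be maternally expressed, 3 were lower and 1 higher in MEKi/L, 1 lower and 3 higher in GSK3i/L, and 2 lower and 3 higher in 2i/L. Several of the maternally expressed members are known as such only in some tissues. Inpp5f, counted as paternally expressed, is imprinted for only part of its transcripts. Gnas is in neither class because its transcripts differ in parental origin. Whether the parental classes differ was not tested. Without replicate 1 of S/L the GSK3i/L count fell from 13 to 6 (1 higher and 5 lower), and without replicate 2 of GSK3i/L to 7 (1 higher and 6 lower). Without replicate 1 of GSK3i/L 2 members were higher there, and in MEKi/L 2 were higher without replicate 1 of S/L or replicate 1 of MEKi/L. With both first replicates that stood apart in the length score left out (an alternative chosen after seeing the data), 12 members were called in MEKi/L, 2 higher and 10 lower, and 12 in GSK3i/L, 3 higher and 9 lower.

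**Figure D1:**
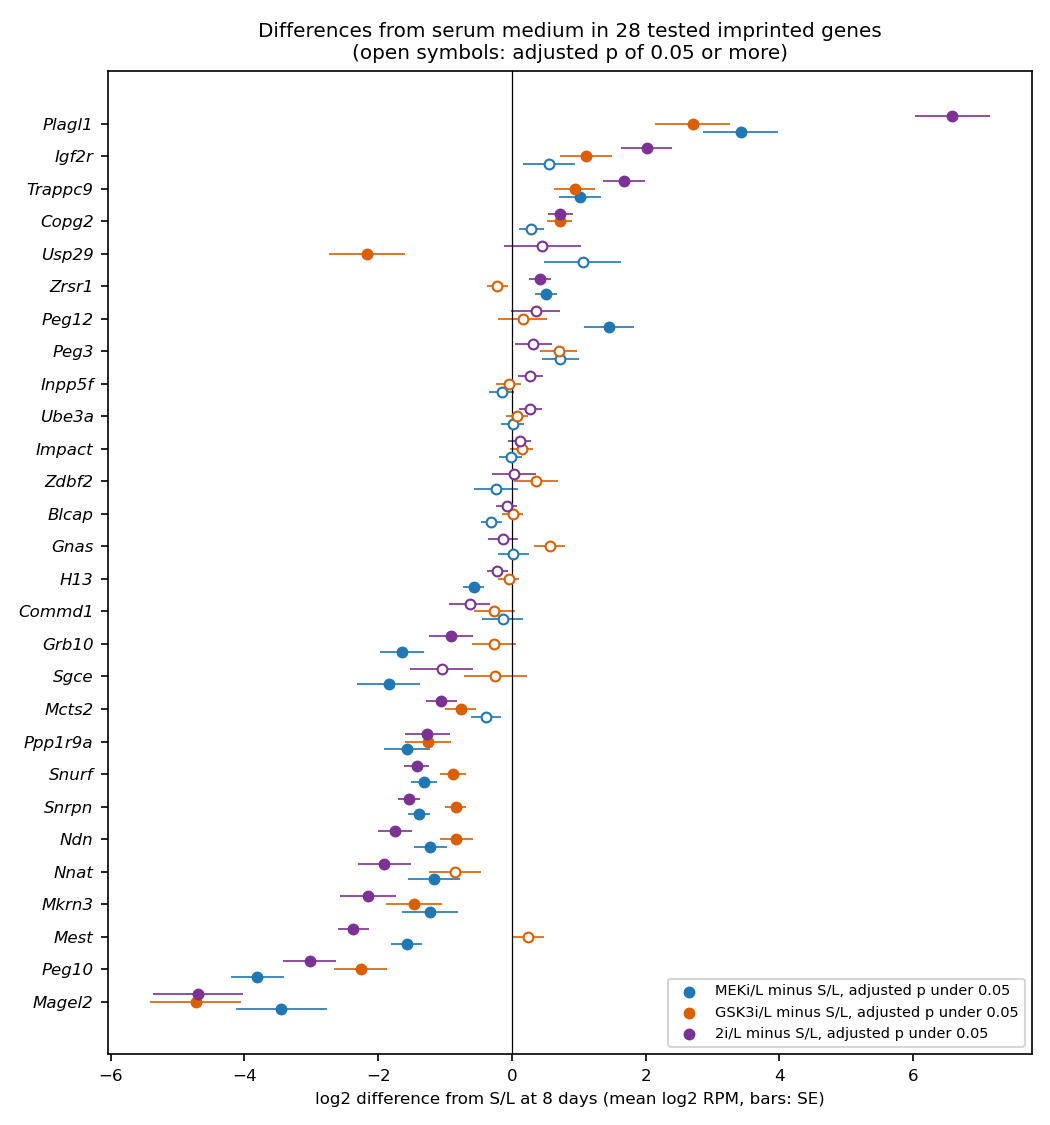
Differences from S/L at 8 days for the 28 tested imprinted genes, as mean log2 RPM in the medium minus that in S/L (x axis) with standard errors as bars. Blue is MEKi/L, orange GSK3i/L and purple 2i/L, and filled symbols have an adjusted p under 0.05. Most filled symbols lie left of 0, Plagl1 lies farthest right at 6.59 in 2i/L, and Mest is split, at 0.24 in GSK3i/L against -1.58 and -2.37 in the media with the MEK inhibitor.

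Of the 7 members in the Snrpn domain on chromosome 7, the mouse counterpart of the Prader-Willi and Angelman region, Snrpn, Snurf, Ndn and Mkrn3 fell in all 3 serum-free media, Peg12 rose in MEKi/L and Ube3a was not called. The remaining member, Magel2, passed the filter through S/L alone. Snrpn (chr7:59982495-60140219 in the deposited table, GRCm38), which encodes a spliceosomal protein, read 167, 160.0 and 217 RPM in S/L, 76.0, 67.6 and 62.0 in MEKi/L, 93.7, 92.2 and 116 in GSK3i/L, 58.8, 67.6 and 59.3 in 2i/L, and 81.7 and 77.8 in GSK3i/L at 24 days. Every serum-free library lay below every S/L library. The log2 differences from S/L were -1.39 ± 0.16 (SE) in MEKi/L, -0.84 ± 0.16 in GSK3i/L and -1.54 ± 0.16 in 2i/L, with adjusted p of 1.98e-05, 0.0018 and 3.81e-06. Snurf (chr7:59995449-60005049) is a small upstream reading frame of the same transcripts. It went from 38.7 ± 9.56 RPM (SD, n = 3) in S/L to 15.3 ± 0.781 in MEKi/L, 20.8 ± 3.88 in GSK3i/L and 14.2 ± 1.28 in 2i/L. The Snurf model lies inside the Snrpn model on the same strand over 9601 bases, reads there cannot be assigned to one of them, and the group means of their log2 levels differed by 2.13 to 2.28. Ube3a, a ubiquitin ligase that is maternally expressed in neurons and lies on the far side of the domain, stayed between 33.3 and 49.4 RPM in all 8-day libraries and was not called in any 8-day comparison.

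The short genes at the other end of the domain behaved less alike. Ndn (chr7:62348277-62349928), a MAGE family growth suppressor, read 13.3, 9.38 and 10.8 RPM in S/L, 5.78, 4.10 and 4.45 in MEKi/L, 6.72, 5.34 and 6.59 in GSK3i/L, and 4.50, 2.77 and 2.84 in 2i/L. Every 8-day serum-free library lay below the lowest S/L library. Its differences of -1.22 ± 0.25, -0.83 ± 0.25 and -1.75 ± 0.25 had adjusted p of 0.00163, 0.0217 and 4.97e-05. Magel2 (chr7:62376979-62381640), a MAGE protein that works with TRIM27 in protein recycling, read 2.82, 1.22 and 3.27 RPM in S/L, from 26, 14 and 34 reads. It had no read in any of the 3 GSK3i/L libraries at 8 days, 1, 5 and 4 reads in MEKi/L, and 0, 0 and 2 reads in 2i/L. Its level in GSK3i/L was at least 7-fold lower than in S/L, taking 3 reads per library as the floor (0.326 RPM on average). Magel2 entered the tested genes only through its 3 S/L libraries, so it had to be highest there and its differences from S/L are given as a description. The Ndn call in GSK3i/L was lost without S/L replicate 1 (-0.70, adjusted p = 0.0914), S/L replicate 3 (-0.85, adjusted p = 0.0506) or GSK3i/L replicate 2 (-0.73, adjusted p = 0.0792).

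Mkrn3 (chr7:62417593-62420139), a RING finger protein known as a brake on puberty, fell from 25.7 ± 3.88 RPM in S/L to 11.6 ± 4.43 in MEKi/L, 10.3 ± 5.59 in GSK3i/L and 6.04 ± 2.30 in 2i/L (adjusted p of 0.0314, 0.018 and 0.000616). Its lowest MEKi/L and GSK3i/L libraries, 6.47 and 4.88 RPM, are the first replicates, where the length score was high. With the score as a covariate the 2i/L difference went from -2.15 to -0.485 (adjusted p = 0.393) and the MEKi/L difference from -1.23 to -0.27 (adjusted p = 0.526), while the GSK3i/L difference went from -1.47 to -0.75 and stayed called (adjusted p = 0.0481). Mkrn3 also lost its MEKi/L call without S/L replicate 1 (-1.11, adjusted p = 0.0999), S/L replicate 3 (-1.23, adjusted p = 0.0682) or MEKi/L replicate 1 (-0.85, adjusted p = 0.147), and its GSK3i/L call without S/L replicate 1 (-1.36, adjusted p = 0.0671) or GSK3i/L replicate 1 (-1.01, adjusted p = 0.0802). Peg12 (chr7:62461871-62464510), a FRAT family protein that binds GSK3, moved the other way. It read 1.09, 0.838 and 1.86 RPM in S/L and 4.63, 2.73 and 2.75 in MEKi/L, with no overlap (1.45 ± 0.37, adjusted p = 0.00669). In GSK3i/L and 2i/L it stood at 1.34 ± 0.215 and 1.56 ± 0.399 RPM, with adjusted p of 0.763 and 0.414 against S/L. With the score as a covariate the MEKi/L difference of Peg12 was 1.17 with adjusted p = 0.065.

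**Figure D2:**
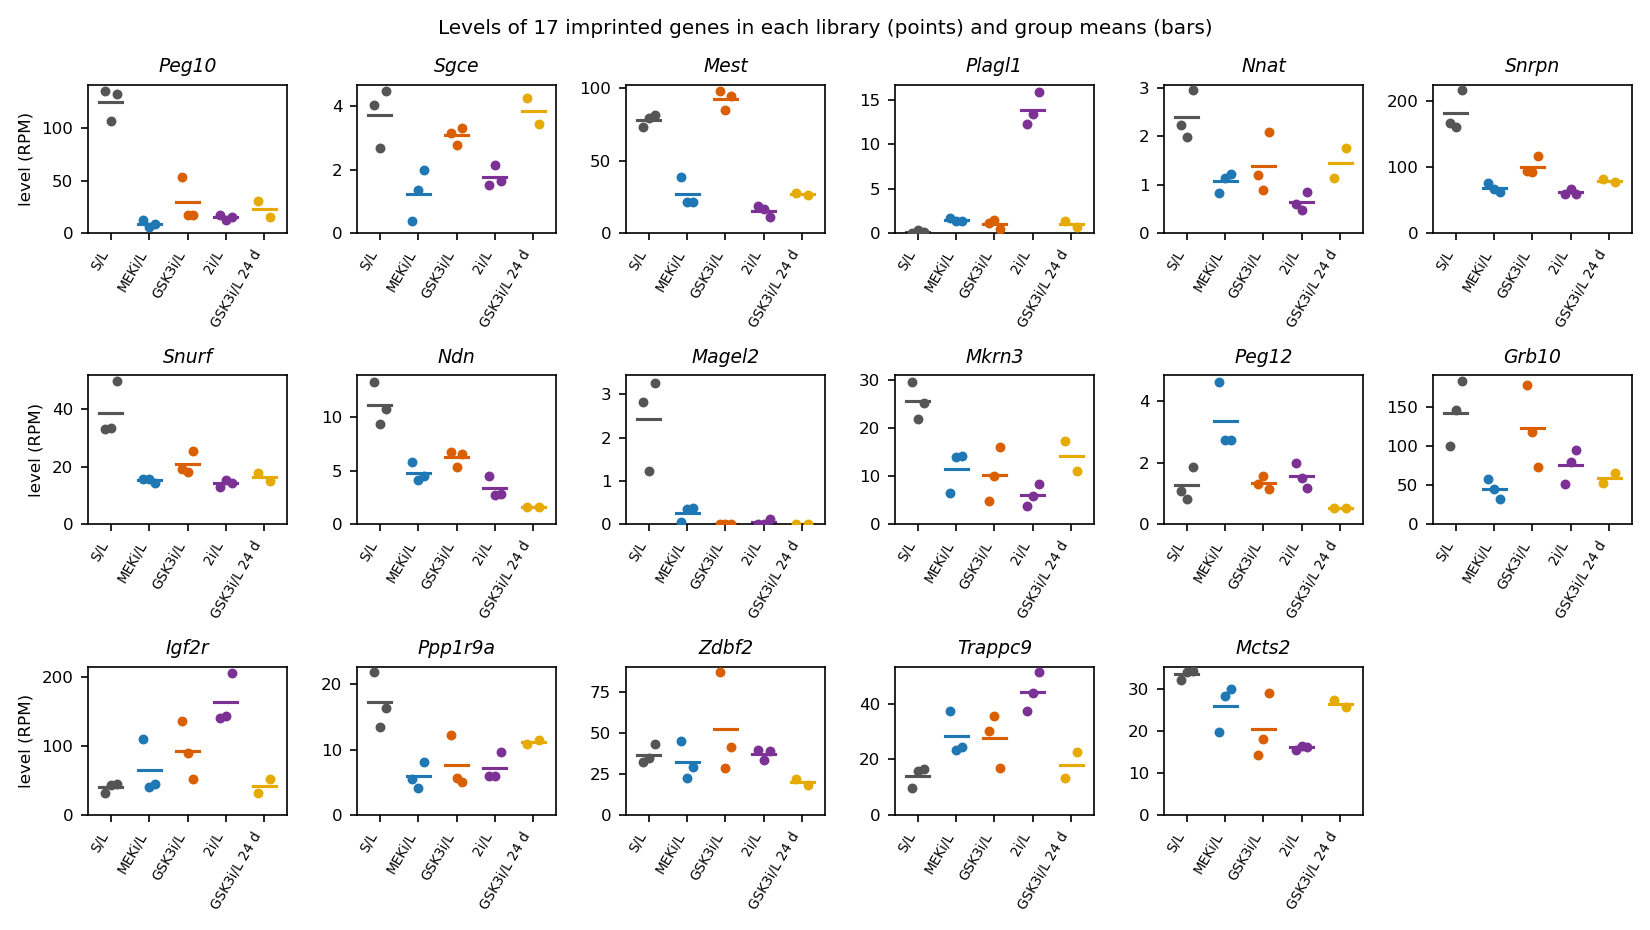
Levels in RPM (y axis, each from 0) of the 17 imprinted genes that were called with at least a 2-fold difference in a comparison and reached a mean of 2 RPM in a group. Points are libraries, bars are group means, and the x axis gives the medium (8 days unless marked). S/L is highest for Peg10, Snrpn and Magel2, 2i/L is highest for Plagl1 and Igf2r, and Mest lies between 73.2 and 98.3 RPM in S/L and 8-day GSK3i/L and at 38.8 or less elsewhere.

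At the Peg10 locus on chromosome 6, Peg10 fell in all 3 media and its neighbour Sgce in MEKi/L. Peg10 (chr6:4747306-4760517) derives from a retrotransposon and is required for the placenta. It read 135, 107 and 132 RPM in S/L, 13.1, 6.19 and 8.53 in MEKi/L, 53.9, 17.8 and 17.8 in GSK3i/L, 17.7, 13.04 and 15.2 in 2i/L, and 30.8 and 15.5 in GSK3i/L at 24 days. No serum-free library reached the lowest S/L library. The differences were -3.81 ± 0.39 in MEKi/L, -2.26 ± 0.39 in GSK3i/L and -3.03 ± 0.39 in 2i/L, with adjusted p of 7.4e-06, 0.000833 and 2.4e-05. The GSK3i/L library at 53.9 RPM is replicate 1, and without it and MEKi/L replicate 1 the GSK3i/L difference was -2.80. Sgce (chr6:4674350-4747204), the sarcoglycan gene mutated in myoclonus dystonia, lies 101 bases away on the other strand. Sgce had 4.02, 2.67 and 4.46 RPM in S/L and 0.381, 1.37 and 1.99 in MEKi/L (-1.84 ± 0.47, adjusted p = 0.00703). In GSK3i/L it stood at 3.07 ± 0.268 RPM (-0.25 ± 0.47, adjusted p = 0.712) and in 2i/L at 1.77 ± 0.321 RPM (-1.05 ± 0.47, adjusted p = 0.0634). Without MEKi/L replicate 1, the library with the lowest value, the MEKi/L difference of Sgce was -1.14 and stayed called, and with the length score as a covariate it was -1.13 (adjusted p = 0.0895).

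Ppp1r9a (chr6:4902917-5165661), which encodes the actin-binding protein neurabin and lies 142399 bases beyond Peg10, was lower in all 3 media. It read 21.9, 13.5 and 16.4 RPM in S/L, 5.58, 4.10 and 8.15 in MEKi/L, 12.2, 5.67 and 5.16 in GSK3i/L, and 6.02, 6.01 and 9.65 in 2i/L. Every 8-day serum-free library lay below the lowest S/L library. The differences were -1.57 ± 0.34, -1.25 ± 0.34 and -1.26 ± 0.34, with adjusted p of 0.00267, 0.0142 and 0.00541. The GSK3i/L call was lost without S/L replicate 1 (-1.07, adjusted p = 0.0662) or GSK3i/L replicate 2 (-1.09, adjusted p = 0.0603). Asb4, further along the same region, had at most 0.381 RPM in any library and was not tested.

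Mest was low in both media that hold the MEK inhibitor. Mest (chr6:30723547-30748455), a hydrolase-like protein of mesoderm and growing tissue, read 73.2, 79.7 and 81.8 RPM in S/L and 98.3, 85.3 and 94.5 in GSK3i/L at 8 days. It read 38.8, 21.4 and 21.7 in MEKi/L and 18.5, 16.8 and 11.1 in 2i/L, and these ranges do not overlap those of S/L and GSK3i/L. The difference from S/L was -1.58 ± 0.23 in MEKi/L and -2.37 ± 0.23 in 2i/L (adjusted p of 0.000128 and 2.04e-06), and 0.24 ± 0.23 in GSK3i/L (adjusted p = 0.433). Between the single-inhibitor media it was -1.82 ± 0.23 (MEKi/L minus GSK3i/L, adjusted p = 8.49e-05). The calls of Mest in MEKi/L and 2i/L against S/L and GSK3i/L held in every alternative run, the one with the length score as a covariate included (-1.87 in MEKi/L and -2.88 in 2i/L against S/L).

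Copg2 (chr6:30747554-30896794), a coat protein subunit of vesicle traffic, overlaps the 3′ end of Mest by 902 bases on the other strand and moved otherwise. It stood at 79.5 ± 7.19 RPM in S/L and rose to 131 ± 20.6 in GSK3i/L and 131 ± 16.4 in 2i/L (0.71 ± 0.19 and 0.72 ± 0.19, adjusted p of 0.0112 and 0.00403). The difference of log2 levels, Mest minus Copg2, went from -0.02 in S/L to -3.11 in 2i/L. The Copg2 call in GSK3i/L was lost without S/L replicate 1 (0.64, adjusted p = 0.0513) or GSK3i/L replicate 2 (0.62, adjusted p = 0.0503), and that in 2i/L with the length score as a covariate (0.20, adjusted p = 0.491).

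**Figure D3:**
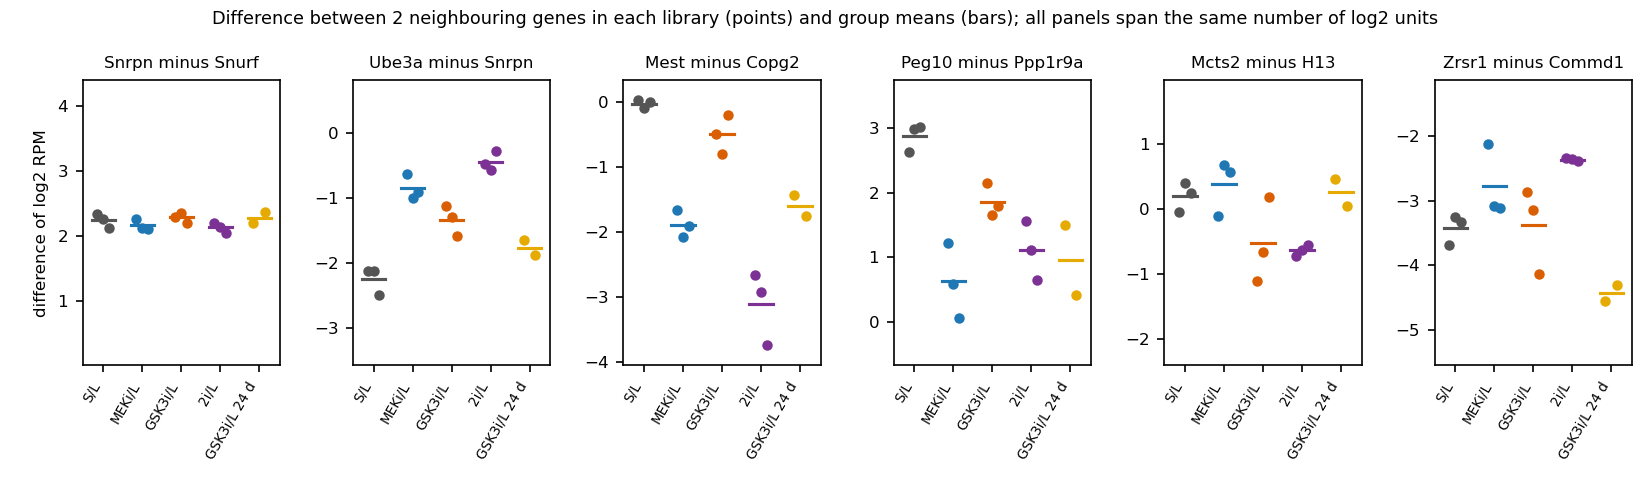
Difference of log2 RPM between 2 neighbouring imprinted genes in each library (points; bars are group means), by medium on the x axis (8 days unless marked). The y axes span the same number of log2 units. Snrpn minus Snurf, models that overlap on the same strand, is nearly flat, with group means of 2.13 to 2.28. Mest minus Copg2 drops from -0.02 in S/L to -1.89 in MEKi/L and -3.11 in 2i/L.

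Plagl1 rose in all 3 media and most in 2i/L. Plagl1 (chr10:13090691-13131694; also called Zac1) encodes a zinc finger transcription factor that restrains proliferation and regulates other imprinted genes. It had 0, 0.379 and 0.0940 RPM in S/L, from 0, 5 and 1 reads. It read 1.78, 1.44 and 1.42 RPM in MEKi/L, 12.3, 13.4 and 15.9 in 2i/L, and 1.20, 1.49 and 0.461 in GSK3i/L. The 24-day libraries read 1.37 and 0.705. The S/L libraries lie below all others and the 2i/L libraries above all others. No S/L library reached 0.5 RPM, so Plagl1 passed the filter only through the other groups, where it was higher. Its differences from S/L are given as a description, although they count among the calls. The differences from S/L were 3.42 ± 0.56 in MEKi/L, 2.71 ± 0.56 in GSK3i/L and 6.59 ± 0.56 in 2i/L, with adjusted p of 0.00034, 0.00299 and 6.11e-07. The 2i/L level was also above that of MEKi/L (3.17 ± 0.56, adjusted p = 0.00237) and of GSK3i/L (3.88 ± 0.56, adjusted p = 0.00022). The size of the change from S/L rests on the few S/L reads, and on a scale of log2(RPM + 0.5) the differences were 1.68 in MEKi/L, 1.21 in GSK3i/L and 4.49 in 2i/L. Without S/L replicate 2, the one with 5 reads, they were 4.12, 3.41 and 7.29.

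Igf2r was higher in GSK3i/L and 2i/L, and it moved with the length score. Igf2r (chr17:12682406-12769664), the maternally expressed receptor that clears IGF2, read 31.6, 44.3 and 45.0 RPM in S/L, 109.5, 40.8 and 44.6 in MEKi/L, 136, 89.7 and 51.7 in GSK3i/L, and 140.3, 144 and 206 in 2i/L. The difference was 2.01 ± 0.38 in 2i/L (adjusted p = 0.000505) and 1.11 ± 0.38 in GSK3i/L (adjusted p = 0.0411). With the score as a covariate these became 0.31 (adjusted p = 0.373) and 0.38 (adjusted p = 0.103). The GSK3i/L call was also lost without any 1 of S/L replicates 1, 2 and 3 and GSK3i/L replicates 1 and 2, with differences of 0.94, 1.19, 1.20, 0.78 and 1.08. Airn, the antisense RNA that silences the paternal Igf2r copy and overlaps it by 28354 bases, was under the test filter. Airn had 4, 3 and 2 reads in 8-day GSK3i/L, 3 and 1 at 24 days, 0, 1 and 0 in MEKi/L, and none in S/L or 2i/L. Slc22a3, a transporter of the same cluster, had 1 read in 1 GSK3i/L library and none elsewhere.

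Trappc9 (chr15:72589621-73061204), a subunit of a vesicle tethering complex, was higher in all 3 media and also moved with the score. Against 14.1 ± 3.78 RPM in S/L, it stood at 28.4 ± 7.69 with the MEK inhibitor, 27.5 ± 9.61 with the GSK3 inhibitor and 44.1 ± 6.88 with both. The differences were 1.02 ± 0.31, 0.94 ± 0.31 and 1.68 ± 0.31, with adjusted p of 0.0175, 0.0333 and 0.000389. With the score as a covariate they were 0.47, 0.53 and 0.72, with adjusted p of 0.207, 0.125 and 0.15. The MEKi/L call was lost without S/L replicate 1 (0.77, adjusted p = 0.0884) or MEKi/L replicate 1 (0.81, adjusted p = 0.08), and the GSK3i/L call without S/L replicate 1 (0.69, adjusted p = 0.147), GSK3i/L replicate 1 (0.84, adjusted p = 0.0995) or GSK3i/L replicate 2 (0.72, adjusted p = 0.135). Its neighbour Kcnk9, a potassium channel, had no read in any library.

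**Figure D4:**
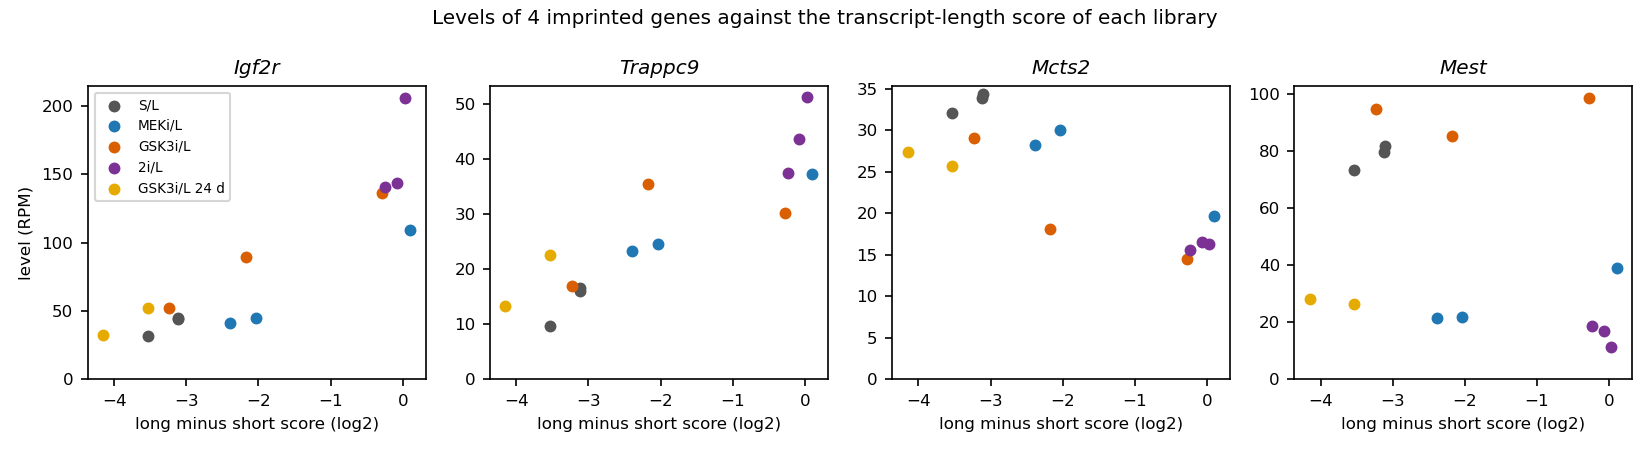
Level in RPM (y axis, from 0) of 4 imprinted genes against the score of long minus short transcripts of the same library (x axis, log2), with 1 point per library coloured by group. Igf2r and Trappc9 are high and Mcts2 is low where the score is near 0. Mest stays between 85.3 and 98.3 RPM in 8-day GSK3i/L at scores from -3.23 to -0.28. In GSK3i/L at 24 days Mest reads 28.1 and 26.2 RPM, within the range of MEKi/L.

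Grb10 was lower than in S/L in both media that hold the MEK inhibitor. Grb10 (chr11:11930508-12038683), an adaptor that damps insulin and growth factor signalling, read 100.6, 146 and 183 RPM in S/L, 58.3, 45.8 and 32.7 in MEKi/L, 178, 119 and 73.3 in GSK3i/L, and 52.3, 80.1 and 95.9 in 2i/L. The MEKi/L and 2i/L libraries all lay below those of S/L (-1.65 ± 0.33, adjusted p = 0.00149, and -0.91 ± 0.33, adjusted p = 0.0258), and the GSK3i/L libraries overlapped them (-0.27 ± 0.33, adjusted p = 0.559). MEKi/L was also below GSK3i/L (-1.38 ± 0.33, adjusted p = 0.00887), while 2i/L overlapped GSK3i/L and was not called against it (-0.65 ± 0.33, adjusted p = 0.15). The 2i/L call was lost without S/L replicate 2 (-0.88, adjusted p = 0.0648), S/L replicate 3 (-0.72, adjusted p = 0.107) or 2i/L replicate 1 (-0.67, adjusted p = 0.123), and the call against GSK3i/L without MEKi/L replicate 3 (-1.16, adjusted p = 0.05). With the length score as a covariate the 2i/L difference was -2.08 (adjusted p = 0.000184).

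Mcts2 (chr2:152687148-152687940), a retrogene copy of a translation factor gene, lies inside H13, a signal peptide peptidase, on the same strand. Mcts2 read 32.1, 33.9 and 34.3 RPM in S/L, 19.7, 28.2 and 30.0 in MEKi/L, 14.4, 18.0 and 29.1 in GSK3i/L, and 15.5, 16.5 and 16.3 in 2i/L. It was lower in 2i/L (-1.05 ± 0.23, adjusted p = 0.00125) and in GSK3i/L (-0.77 ± 0.23, adjusted p = 0.0211). H13 was lower in MEKi/L, at 19.6 ± 1.87 RPM against 29.3 ± 3.75 in S/L (-0.57 ± 0.16, adjusted p = 0.0111), and without S/L replicate 1 that call was lost (-0.48, adjusted p = 0.0548). With the length score as a covariate the Mcts2 differences were -0.20 in 2i/L (adjusted p = 0.56) and -0.40 in GSK3i/L (adjusted p = 0.0676). The GSK3i/L call of Mcts2 was also lost without any 1 of S/L replicates 1, 2 and 3 and GSK3i/L replicates 1 and 2, with differences of -0.80, -0.76, -0.75, -0.55 and -0.71.

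Nnat (chr2:157560078-157562522), a small membrane protein of the brain, lies inside Blcap on the other strand. Nnat read 2.23, 1.99 and 2.95 RPM in S/L, 0.825, 1.15 and 1.23 in MEKi/L, 1.20, 0.895 and 2.10 in GSK3i/L, and 0.610, 0.474 and 0.860 in 2i/L. It was lower in MEKi/L (-1.16 ± 0.39, adjusted p = 0.0289) and 2i/L (-1.91 ± 0.39, adjusted p = 0.000861), and its host Blcap stayed between 24.8 and 35.8 RPM in all libraries and was not called in any comparison. The 11 neural markers in the table summed to 541 to 559 RPM in S/L, with Dcx and Neurog2 at 0, to 287 to 350 in MEKi/L and to 169 to 216 in 2i/L, most of it Stmn2, and their part in the Nnat values was not tested. Both Nnat calls were lost with the length score as a covariate (-0.84, adjusted p = 0.21, and -1.35, adjusted p = 0.136), and the MEKi/L call without S/L replicate 1 (-1.20, adjusted p = 0.0614), S/L replicate 3 (-1.001, adjusted p = 0.098) or MEKi/L replicate 1 (-0.985, adjusted p = 0.109).

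Zrsr1 (chr11:22972005-22976496), a retrogene for a splicing factor, lies inside Commd1 on the other strand. Zrsr1 stood at 27.1 ± 1.68 RPM in MEKi/L and 25.5 ± 0.864 in 2i/L, and at 19.2 ± 3.00 in S/L and 16.4 ± 1.65 in GSK3i/L. All libraries with the MEK inhibitor lay above all others. The differences from GSK3i/L were 0.73 ± 0.16 in MEKi/L and 0.64 ± 0.16 in 2i/L (adjusted p of 0.00492 and 0.00916), and those from S/L 0.51 ± 0.16 and 0.42 ± 0.16 (adjusted p of 0.0206 and 0.032). With centring on the median, the rises over S/L were 0.33 in MEKi/L (adjusted p = 0.104) and 0.11 in 2i/L (adjusted p = 0.551), and that of 2i/L over GSK3i/L was 0.33 (adjusted p = 0.127). The MEKi/L rise over S/L was also lost without S/L replicate 1 (0.385, adjusted p = 0.0969) or MEKi/L replicate 1 (0.46, adjusted p = 0.0693), and that of 2i/L without S/L replicate 1 or 3 or any 1 of the 2i/L libraries (adjusted p of 0.144, 0.0576, 0.0557, 0.0885 and 0.0745). Commd1, a copper and NF-kappaB regulator, ranged from 107 to 291 RPM within 8-day GSK3i/L alone and was not called in any comparison. The libraries were made with a kit that keeps strand, but whether counting used it is not given in the sources used here, so reads of genes that overlap on opposite strands cannot be told apart.

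At the Peg3 locus on chromosome 7, Usp29 was lower in GSK3i/L than in the other media at 8 days, at very low counts. Usp29, a ubiquitin protease gene, had 3, 7 and 5 reads in S/L, 17, 9 and 8 in MEKi/L, and 7, 3 and 18 in 2i/L. In GSK3i/L it had 1, 0 and 0 reads at 8 days and none in either 24-day library. The 8-day GSK3i/L libraries had 0.0910, 0 and 0 RPM against 0.241, 0.559 and 0.435 in S/L, and the difference had an adjusted p of 0.0124. Against GSK3i/L, Usp29 was higher in MEKi/L (adjusted p = 0.00114) and 2i/L (adjusted p = 0.00437). No GSK3i/L library reached 0.5 RPM, so Usp29 passed the filter only through the media where it was higher. Its differences from GSK3i/L are given as a description, although they count among the calls of 3 comparisons. The S/L mean of 0.412 RPM is near the floor of 3 reads in 8-day GSK3i/L (0.326 RPM on average). Peg3, a zinc finger protein of growth and maternal behaviour, averaged 20.2 ± 4.87 RPM in S/L, 24.7 ± 1.95 in 2i/L, 32.8 ± 7.68 in GSK3i/L and 35.0 ± 16.1 in MEKi/L and was not called in any comparison. Zim1 had at most 0.360 RPM in any library.

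The remaining members were not called against S/L at 8 days. Impact, a regulator of the amino acid stress kinase GCN2, lay between 103 and 157 RPM in all 8-day libraries. Gnas, the stimulatory G protein locus, averaged 136 ± 4.17 RPM in 2i/L, 150.2 ± 22.6 in S/L, 154 ± 33.7 in MEKi/L and 228 ± 68.2 in GSK3i/L. Gnas holds several imprinted transcripts that the gene total does not separate. Inpp5f, a phosphatase of inositol lipids, stayed between 20.7 and 37.9 RPM at 8 days. Zdbf2 (chr1:63273265-63314576), known for an effect on growth, read 32.3, 35.1 and 43.2 RPM in S/L, 45.2, 22.5 and 29.4 in MEKi/L, 87.2, 28.5 and 41.4 in GSK3i/L, and 39.6, 33.7 and 39.1 in 2i/L. The Zdbf2 groups overlap, and the value of 87.2 is in the GSK3i/L replicate 1 that stood apart. Nap1l5 and Rasgrf1 had at most 0.216 and 0.0950 RPM and were not tested.

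With the MEK inhibitor added to GSK3i/L (2i/L against GSK3i/L), 8 of the 28 members were called (28.6%), 3 higher and 5 lower. Of all tested genes 27.8% were called (19.8% higher and 8.02% lower), so the share called in either direction is near that of all genes. Mest fell by 2.62 on the log2 scale (adjusted p = 4.93e-06), Ndn by 0.91 (adjusted p = 0.015), Snrpn by 0.70 (adjusted p = 0.00641), Gnas by 0.70 (adjusted p = 0.0353) and Snurf by 0.54 (adjusted p = 0.0489). Plagl1, Usp29 and Zrsr1 were higher, and Usp29 had passed the filter without any GSK3i/L library. With centring on the median 2 members were higher and 8 lower, and after quantile normalization 2 higher and 6 lower. With GSK3i/L replicate 1 and MEKi/L replicate 1 left out 13 were called, 5 higher and 8 lower, and without 2i/L replicate 2 or 3 there were 5. The Gnas call was lost without any 1 of GSK3i/L replicates 1 and 2 and the 3 2i/L libraries (adjusted p of 0.0884, 0.109, 0.0942, 0.0854 and 0.0829), the Snurf call without GSK3i/L replicate 3 (0.181) or any 1 of the 2i/L libraries (0.146, 0.0814 and 0.102), and the Ndn call without 2i/L replicate 2 (0.0689) or 3 (0.0617).

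With the GSK3 inhibitor added to MEKi/L (2i/L against MEKi/L), 3 members were called (10.7%), 2 higher and 1 lower. Of all tested genes 12.9% were called (6.81% higher and 6.11% lower), so the share called in either direction is near that of all genes. Plagl1 rose, Igf2r rose (1.46 ± 0.38, adjusted p = 0.0229) and Mest fell by 0.80 (adjusted p = 0.0367). Igf2r stood at 163 ± 37.0 RPM in 2i/L against 65.0 ± 38.6 in MEKi/L, where replicate 1 was at 109.5. Without MEKi/L replicate 1 there were 8 calls, and with both first replicates left out 12, 8 higher and 4 lower, with Igf2r at 1.91 (adjusted p = 0.000226) and Mest at -0.51 (adjusted p = 0.0534). With the length score as a covariate the Igf2r difference was 0.73 (adjusted p = 0.00693). Without 2i/L replicate 2 or replicate 3 there was 1 call. The split became 2 higher and 3 lower with centring on the median and 2 and 2 with trimmed mean scaling. Mest lost its call here without MEKi/L replicate 1 (-0.51, adjusted p = 0.0666), 2i/L replicate 2 (-0.87, adjusted p = 0.0718) or 2i/L replicate 3 (-0.57, adjusted p = 0.16), and Igf2r without MEKi/L replicate 2 (1.20, adjusted p = 0.109) or 3 (1.265, adjusted p = 0.107) or 2i/L replicate 2 (1.54, adjusted p = 0.0553) or 3 (1.28, adjusted p = 0.0953).

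Between the single inhibitors in the same base medium (MEKi/L against GSK3i/L), 9 members were called, 3 higher and 6 lower in MEKi/L, where 17.8% of all tested genes were called (12.2% higher and 5.65% lower). Mest, Grb10, Sgce (-1.60 ± 0.47, adjusted p = 0.0289), Peg10 (-1.54 ± 0.39, adjusted p = 0.013), Snrpn (-0.55 ± 0.16, adjusted p = 0.0288) and H13 (-0.53 ± 0.16, adjusted p = 0.0327) were lower with the MEK inhibitor, and Usp29, Zrsr1 and Peg12 (1.29 ± 0.37, adjusted p = 0.0241) were higher. Usp29 had passed the filter without any GSK3i/L library. Replicates 1 and 3 deviated together between these 2 groups (correlations of 0.669 and 0.401). Replicate 2 hardly did (0.115), and MEKi/L replicate 2 went more with GSK3i/L replicate 3 (0.38). A fit of these groups with the replicate block called 8 members, and Snrpn and H13 were not called in it (adjusted p of 0.0519 and 0.0521) while Zdbf2 was (-0.59, adjusted p = 0.0362). Over all genes it called 3443, against 1591 in a fit of the 2 groups without the block and 2670 in the fit of all libraries. The fit of the 2 groups without the block called 4 members. The split of 3 higher and 6 lower became 3 and 10 with centring on the median and 2 and 8 after quantile normalization. Peg10 lost its call without MEKi/L replicate 2 (-1.29, adjusted p = 0.0594) and stood at -1.01, still called, without GSK3i/L replicate 1, Sgce without MEKi/L replicate 1 (-0.89, adjusted p = 0.0795) or any 1 of the GSK3i/L libraries (0.0555, 0.0601 and 0.0581), and Peg12 without MEKi/L replicate 1 (1.04, adjusted p = 0.105), GSK3i/L replicate 1 (0.0526) or GSK3i/L replicate 3 (0.0625). Snrpn lost its call without GSK3i/L replicate 3 (0.0763), MEKi/L replicate 2 (0.0712) or MEKi/L replicate 3 (0.114), and H13 without GSK3i/L replicate 1 (0.0962) or 2 (0.0794) or MEKi/L replicate 2 (0.117) or 3 (0.0693).

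From 8 to 24 days in GSK3i/L, 8 members fell, where 17.5% of all tested genes were called (4.3% higher and 13.2% lower). limma called 0 members higher, and 0 had an unadjusted p under 0.05 in that direction, the smallest being 0.107. Mest dropped from 98.3, 85.3 and 94.5 RPM to 28.1 and 26.2 (-1.77 ± 0.26, adjusted p = 0.00109), between the lowest and the highest MEKi/L library at 8 days. Ndn dropped from 6.72, 5.34 and 6.59 RPM to 1.59 and 1.58 (-1.96 ± 0.28, adjusted p = 0.000869). The falls of Mest and Ndn held in every alternative run. Zdbf2 read 18.8 and 22.2 RPM at 24 days, below every 8-day library of any medium. Zrsr1 (10.5 and 11.6 RPM), Ube3a (21.1 and 26.2 RPM), Impact (85.2 and 86.8 RPM) and Peg12 (0.528 and 0.532 RPM) also lay below all 8-day libraries at 24 days. Zdbf2 (-1.20 ± 0.37), Peg12 (-1.33 ± 0.41), Ube3a (-0.76 ± 0.19), Copg2 (-0.67 ± 0.21), Impact (-0.61 ± 0.19) and Zrsr1 (-0.57 ± 0.18) were also lower, with adjusted p of 0.0214 to 0.0436. Zdbf2, Peg12, Ube3a, Copg2, Impact and Zrsr1 each lost the call without 24-day replicate 2, without 24-day replicate 3 and without 8-day replicate 1, and Peg12, Copg2, Impact and Zrsr1 also without 8-day replicate 2, with adjusted p of up to 0.251. Without 8-day replicate 3 there were 16 calls, 2 higher and 14 lower. Grb10 read 53.2 and 65.7 RPM, Igf2r 32.4 and 52.0, Ppp1r9a 10.9 and 11.5, and Mkrn3 11.1 and 17.5 at 24 days, and none of these was called. Sgce stood at 3.44 and 4.25 RPM, Nnat at 1.14 and 1.76, Trappc9 at 13.2 and 22.5, and Mcts2 at 25.6 and 27.3, also without a call. Peg10, Snrpn, Plagl1 and Magel2 were not called between these times, and Magel2 had no read at 24 days either.

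Of 26 genes that lay down, keep or remove the imprints, all tested, 10 were higher and 4 lower in MEKi/L than in S/L (53.8%, beside 40.8% of all tested genes), 3 higher and 3 lower in GSK3i/L (23.1%, beside 31.1%), and 12 higher and 7 lower in 2i/L (73.1%, beside 63.6%). Zfp57, the imprint reader, rose from 314 ± 40.7 RPM in S/L to 521 ± 124 in MEKi/L (0.71 ± 0.21, adjusted p = 0.0177), and stood at 376 ± 61.6 in GSK3i/L and 355 ± 64.8 in 2i/L, neither of them called. Zfp57 averaged 581 ± 82.1 RPM in GSK3i/L at 24 days. The genes that follow are given by levels only, in the order S/L, MEKi/L, GSK3i/L and 2i/L at 8 days. Uhrf1, which guides DNMT1 to newly copied DNA, averaged 144 ± 19.8, 399 ± 129.8, 454 ± 195 and 625 ± 66.7 RPM. Dnmt3a, a de novo methyltransferase, averaged 133 ± 10.3, 45.3 ± 14.9, 30.2 ± 9.84 and 12.2 ± 2.58 RPM. Dnmt3l averaged 264 ± 50.9, 154 ± 48.0, 169 ± 11.5 and 9.63 ± 4.98 RPM. Dppa3, an inhibitor of UHRF1, averaged 23.8 ± 0.706, 10.5 ± 1.84, 5.87 ± 1.70 and 12.2 ± 3.94 RPM. The 15 tested imprinted genes of the other clusters gave 3 higher and 4 lower in MEKi/L (46.7%, beside 40.8% of all tested genes), 3 and 3 in GSK3i/L (40%, beside 31.1%), and 3 and 6 in 2i/L (60%, beside 63.6%). Whether they differ from the genes described here was not tested.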

How the data were processed

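RNA was measured in 14 of the series' 38 samples, and the 24 bisulfite sequencing samples were not used here. The authors deposited 1 table of log2 RPM (read counts scaled to a common library size, on the log2 scale) for 25965 genes. Per the labels' protocols, libraries were made from poly(A) RNA with a directional kit and sequenced as single-end reads. HISAT2, Trim Galore 0.6.5, the GRCm38 build and, for bisulfite reads, Bismark 0.22.3 are named per the submitters' processing notes. No source used here gives the counting options, strand setting or annotation. In 8 columns at least 99.96% of values were whole multiples of 1 read (tolerance 0.02). Genes without reads hold a value slightly below that of 1 read. The other 6 columns (S/L and 8-day GSK3i/L) share 1 distribution, with sorted values within 0.083 of each other on the log2 scale. Low read numbers were taken from the rank of the distinct values in a column. Depth was taken from the value of a gene with 100 reads and is given for the 8 plain columns only. Genes without a read are given as 0 RPM, and tests used the deposited values.

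Differences were tested with limma 3.58.1 (R 4.3.3) with an intensity trend and robust variances, on all 14 libraries with group as the only term. Genes needed 0.5 RPM in 3 libraries, p-values were adjusted over all 14980 tested genes by the Benjamini-Hochberg method, and the threshold was 0.05. The fit was tested on simulated data. The labels call the replicates biological but name no separate cultures, so p-values measure the spread between these samples, which may be technical. Alternatives covered scaling, filters, a pseudocount, the variance model, the samples fitted, the replicate number, the length score and each replicate left out. Same-numbered samples deviated together in MEKi/L against GSK3i/L alone, and there in replicates 1 and 3 (correlations of 0.67 and 0.40) more than in replicate 2 (0.12). The pairing comes from the data and not from the labels.

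The members and gene lists were chosen with earlier results of these data known. The value in every sample is given for members called with a 2-fold difference in any comparison and a mean of 2 RPM in a group, and the others are given by their levels and ranges. Usp29 is also shown by sample. Gene positions are those of the deposited table, and 34 of the 35 member identifiers were in the gene name table. Promoter sequences come from RefSeq (GRCm38.p6). Tables and figures were made with Python 3.11.15, pandas 2.3.3 and matplotlib 3.10.9.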

Additional observations from a re-analysis of the deposited data

How the results depend on the processing

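Of 196 pairs of a tested member and a comparison, 73 were called and 32 of these stayed called in every alternative run. The length score as a covariate ended 22 of the 73 calls and fitting only the 2 groups compared ended 18. The score itself differs between media, so calls ended by it do not tell length and medium apart. In the 2i/L against S/L comparison the count of 16 members stayed within 1.5 times under every alternative, with 14 to 15 when 1 replicate was left out. Its higher members fell from 5 to 2 with the length score. The ranges for leaving out 1 replicate were 11 to 17 for MEKi/L against S/L (16 with all), 6 to 17 for GSK3i/L against S/L (13), 5 to 9 for 2i/L against GSK3i/L (8), 1 to 8 for 2i/L against MEKi/L (3), 6 to 9 for MEKi/L against GSK3i/L (9) and 2 to 16 for 24 against 8 days (8). For 2i/L against GSK3i/L, 14 members were called with no filter on low values and 13 with both first replicates that stood apart left out, which was chosen after seeing the data. For 2i/L against MEKi/L there were 5 calls with median centring, 5 with no filter, 5 with the length score and 12 without those first replicates. For MEKi/L against GSK3i/L there were 4 in a fit of the 2 groups and 14 with the length score. For 24 against 8 days there were 3 after quantile normalization, 4 with median centring, 3 with trimmed mean scaling, 4 with no filter, 4 without trend and robust variances, 2 in a fit of the 2 groups and 2 with the length score. The length score as a covariate gave called differences of the opposite sign for Gnas (-0.44, against 0.02 without it) and Commd1 (0.60, against -0.14) in MEKi/L minus S/L, and for Zdbf2 (-1.17, against 0.03) and Commd1 (0.66, against -0.63) in 2i/L minus S/L. The cause of these shifts was not tested. With the replicate block over all 14 libraries the counts were 16, 13 and 16 in MEKi/L, GSK3i/L and 2i/L against S/L, 8 in 2i/L against GSK3i/L, 4 in 2i/L against MEKi/L, 9 in MEKi/L against GSK3i/L and 3 in 24 against 8 days. Outside MEKi/L against GSK3i/L the samples share only a replicate number. The 24-day group has 2 libraries, and leaving 1 out assumes that the other varies like the rest. Genes with a few reads, such as Usp29, Magel2 and Airn, are limited by depth.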
